A study of Rattus norvegicus with 145 samples.

Results

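Heat shock proteins and their DnaJ co-chaperones were followed in the livers of rats given acetamide, a small amide that is a liver carcinogen in rats. The group was taken as every listed gene whose symbol begins with Hspa, Hspb, Hspd, Hspe, Hsph, Hsp90, Dnaja, Dnajb or Dnajc and a number, and it holds 70 of the 17337 genes listed. Gene expression was measured by RNA-Seq in the left liver lobe of rats in 29 groups of 5. In experiment A, male Wistar rats of the Hsd:WI stock, 9 to 10 weeks old, were gavaged daily for 7 days with water vehicle (0) or with acetamide at 30, 100, 300 and 1000 mkd (mg per kg body weight a day), and necropsy followed on day 8 after an overnight fast. In experiment B, male and female Crl:WI Wistar rats, 8 to 10 weeks old, received 0, 300, 500, 750, 1000 or 1500 mkd for 7 or 28 days, and necropsy followed on day 8 or day 29, 24 h after the last dose, with terminal body weights also taken fasted. The 5 vehicle control males of day 29 carry the experiment label of the other study, but their titles, stock and duration place them in experiment B, where they are used here. Comparisons of doses are each with the controls of the same experiment, sex and day.

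Library depth, as reads assigned to genes, ran from 15449716 to 39986531 a rat. Levels are in CPM, read counts set relative to library size and scaled by the TMM method within each of the 5 count tables, so that levels in different tables are set side by side and were compared only in joint fits. Folds are log2 fold changes, treated minus control, with their standard error (SE), and adjusted p values are from the quasi-likelihood F-test of edgeR, adjusted by Benjamini-Hochberg over all genes tested in a comparison. A gene is called differentially expressed (DEG) where it differs 1.5-fold or more with an adjusted p no higher than 0.05, and "rose" and "fell" are used for such genes alone. A pair of libraries stood apart from the others of their groups. Rat 3 of the males at 1500 mkd on day 29 had a mean correlation of 0.913 with its group and 1247 CPM summed over 14 cell cycle genes, and rat 2 at 1000 mkd in experiment A had a mean correlation of 0.944, the highest TMM factor (1.91) and 73420 CPM summed over 10 hepatocyte markers (Alb, Apoa1, Ttr and others), the lowest sum of its group. For the other rats that correlation was at least 0.954. All 10 hepatocyte markers were tested in every table.

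Heat shock proteins are molecular chaperones, which keep unfolded proteins from aggregating and help them to fold. Hsp70 proteins do so in cycles of ATP hydrolysis that DnaJ proteins start and Hsp110 proteins reset, Hsp90 proteins act on clients that are nearly folded, and small heat shock proteins hold unfolded clients without ATP. Genes of the group that heat induces are under the heat shock factor HSF1, and those of the endoplasmic reticulum (ER) that ER stress induces are under the unfolded protein response. The mitochondrion has an Hsp70, a chaperonin and DnaJ proteins of its own. By site, the 70 genes comprise 9 cytosolic Hsp70 and Hsp110 proteins, 2 cytosolic Hsp90 proteins, 19 cytosolic or nuclear DnaJ proteins, 8 small heat shock proteins, 13 ER and 8 mitochondrial proteins and 11 others. In the liver, which secretes most plasma proteins, the ER chaperones are known to be abundant.

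After the filter on low counts, 60 of the 70 genes were tested in experiment A, 61 in males of experiment B on each day and 62 in females on each day. Of these, 60 were tested in all 5 tables, 8 in none (Dnajb8, Dnajc5b, Dnajc5g, Dnajc6, Hsp90aa1, Hspb3, Hspb7 and Hspb9) and 2 in some (Dnajb3 in 4 and Hspa1l in 2). Hsp90aa1, the inducible cytosolic Hsp90, had at most 1 read in a rat and was above 0 in 18 rats. RefSeq names 16 pseudogenes after Hsp90aa1, 33 after Hspa8, the constitutive cytosolic Hsp70, 23 after Hsp90ab1 and 20 after Hspd1. Hspa8 had a median of 5.84 CPM over all rats. How reads that match such copies were counted was not tested, so the levels of these genes are uncertain, as is the split between Hspa1a and Hspa1b, which are near-identical copies.

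The stretch before the transcription start is printed for 6 genes, because heat shock factors and the ER stress factor ATF6 are known to act through motifs in such stretches. All 6 hold such a motif, and other called genes, such as Dnaja3 and Dnajc5, are not printed. They are Hspb1, called most often, Hspa9 of the mitochondrion, Dnajb1 and Hsph1 of the cytosol, and Hspe1 and Hspa5, the ER Hsp70. The levels of Hspe1 and Hspa5 were not called in any dose comparison. Sequences are from RefSeq (GRCr8, 250 bases up to the start, 5′ to 3′ on the gene's strand), a newer build than that on which the reads were counted. Capitals mark the cores of the heat shock element (GAANNTTC or TTCNNGAA, each the same on both strands, overlapping in Hspe1 and Hsph1) and, in Hspa5, the ER stress element (CCAAT, any 9 bases, then CCACG).
Hspb1, chr12:26432302-26432551, minus strand: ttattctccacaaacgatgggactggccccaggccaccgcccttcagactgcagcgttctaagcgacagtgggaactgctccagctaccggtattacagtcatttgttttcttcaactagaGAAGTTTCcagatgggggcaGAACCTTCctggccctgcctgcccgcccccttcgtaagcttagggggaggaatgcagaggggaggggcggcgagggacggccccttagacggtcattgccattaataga
Hspa9, chr18:26828399-26828648, minus strand: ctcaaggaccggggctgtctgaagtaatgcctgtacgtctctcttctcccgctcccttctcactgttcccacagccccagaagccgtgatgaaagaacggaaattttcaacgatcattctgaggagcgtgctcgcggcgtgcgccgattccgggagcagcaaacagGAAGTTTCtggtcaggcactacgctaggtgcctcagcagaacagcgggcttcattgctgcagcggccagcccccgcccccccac
Dnajb1, chr19:41431142-41431391, minus strand: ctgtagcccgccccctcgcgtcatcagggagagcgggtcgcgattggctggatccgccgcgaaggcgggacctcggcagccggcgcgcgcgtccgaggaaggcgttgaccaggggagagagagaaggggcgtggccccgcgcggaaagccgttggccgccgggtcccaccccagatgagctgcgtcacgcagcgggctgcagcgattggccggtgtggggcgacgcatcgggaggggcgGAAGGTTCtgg
Hsph1, chr12:10427118-10427367, plus strand: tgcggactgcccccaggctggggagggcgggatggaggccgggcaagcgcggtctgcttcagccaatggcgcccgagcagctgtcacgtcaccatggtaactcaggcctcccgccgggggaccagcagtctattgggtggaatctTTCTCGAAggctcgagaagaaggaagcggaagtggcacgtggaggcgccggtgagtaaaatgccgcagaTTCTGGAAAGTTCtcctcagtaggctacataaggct
Hspe1, chr9:64084077-64084326, plus strand: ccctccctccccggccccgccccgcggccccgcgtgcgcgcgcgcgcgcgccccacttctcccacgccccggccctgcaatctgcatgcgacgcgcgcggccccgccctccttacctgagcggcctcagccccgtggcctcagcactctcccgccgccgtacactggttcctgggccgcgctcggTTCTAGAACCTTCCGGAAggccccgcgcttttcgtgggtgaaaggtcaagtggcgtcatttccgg
Hspa5, chr3:38452766-38453015, plus strand: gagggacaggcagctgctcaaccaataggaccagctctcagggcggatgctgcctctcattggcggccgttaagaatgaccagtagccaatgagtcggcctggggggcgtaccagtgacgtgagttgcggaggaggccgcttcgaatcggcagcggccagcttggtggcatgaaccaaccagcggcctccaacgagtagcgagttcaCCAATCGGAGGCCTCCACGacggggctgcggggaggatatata
Counted from the start, the Hspb1 cores begin at -129 and -109, that of Hspa9 at -84, that of Dnajb1 at -11, those of Hsph1 at -105, -36 and -31 and those of Hspe1 at -65, -60 and -55, while the ER stress element of Hspa5 begins at -43. Hspa9 and Dnajb1 hold 1 more core each, at 18, behind the start. Hspe1 and Hspd1, which encode the mitochondrial co-chaperonin and chaperonin, start 290 bases apart on opposite strands.

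A RefSeq promoter (250 bases before to 50 after the start) was found for 55 of the 70 genes. Of these 55, 16 (29.1%) held at least 1 heat shock element core on either strand, against 15.4% of the 27457 promoters of all genes, and 9 (16.4%) held 2 or more, against 2.12%. Cores were found in 4 of 8 cytosolic Hsp70 and Hsp110 promoters, 3 of 13 cytosolic or nuclear DnaJ promoters, 3 of 6 of small heat shock proteins (Hspb1, Hspb6 and Hspb8), 3 of 6 mitochondrial ones (Hspa9, Hspd1 and Hspe1) and 1 of 13 ER ones (Dnajc18). The ER stress element was found in Hspa5, Hsp90b1 and Dnajc3 alone among the 55 (5.45%), against 0.0765% of all promoters. The core TGACGTGG, bound by XBP1, was in 3 (5.45%, all 0.637%), TATAAA in 7 (12.7%, all 14.3%) and CCAAT, which the ER stress element also holds, in 23 (41.8%, all 37.7%). TGATGCAA, bound by ATF4, was in 0 of 55 and 0.743% of all promoters. These matches describe the letters of the windows and not where a factor binds.

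Hspb1, the small heat shock protein Hsp27 that also binds actin filaments, was the gene of the group called most often, at the highest dose in 4 of the 5 tables, and always upward. In experiment A the vehicle control rats had 14.6, 11.0, 10.2, 10.1 and 13.4 CPM of Hspb1, and the rats at 1000 mkd had 26.7, 105, 29.0, 27.1 and 33.5 CPM. Every treated rat lay above every control rat, and rat 2 lay far above the other 4. Hspb1 rose by 1.90 (SE 0.32, adjusted p = 0.000313, edgeR), and by 1.29 without rat 2 (adjusted p = 0.000672). At 30, 100 and 300 mkd the means were 11.9, 15.7 and 11.3 CPM against 11.9 ± 2.04 in the control (SD, n = 5), with 1, 3 and 1 rats above all controls.

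In females of day 8 the mean level of Hspb1 was higher at each tested dose than in the control. The control females had 5.68, 6.00, 14.0, 5.06 and 13.5 CPM, and the group means were 8.86 CPM in the control, 14.0 at 300, 22.2 at 500, 42.7 at 750, 40.4 at 1000 and 65.7 at 1500 mkd. From 500 mkd on, all 5 rats of each dose were above all controls. At 1500 mkd the rats had 17.2, 85.1, 164, 43.9 and 18.2 CPM, which is a wider spread than at any lower dose. Hspb1 rose by 2.19 at 1000 mkd (SE 0.50, adjusted p = 0.0256, edgeR) and by 2.89 at 1500 mkd (SE 0.51, adjusted p = 0.020). At 750 mkd the log2 fold change was 2.27 (SE 0.50, adjusted p = 0.0597), just past the threshold. The call was lost at 1000 mkd without any 1 of the 5 controls or without treated rat 1 or 5 (adjusted p from 0.0545 to 0.103), and at 1500 mkd without control rat 1, 2 or 4 or treated rat 2 or 3 (from 0.0567 to 0.108) and with the control and this dose alone (0.0774). Over these and the other alternatives at 1500 mkd the log2 fold change of Hspb1 lay between 2.22 and 3.16.

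On day 29 Hspb1 was called in both sexes, in males at 1000 and 1500 mkd and in females at 1500 mkd. Control males had 18.3, 7.91, 19.5, 4.00 and 18.2 CPM, males at 1000 mkd 27.5, 98.9, 25.7, 19.2 and 72.1 CPM and males at 1500 mkd 41.9, 22.5, 24.2, 92.1 and 46.8 CPM. At 1500 mkd all 5 rats were above the controls, at 1000 mkd 4 of 5. Hspb1 rose by 1.84 at 1000 mkd (SE 0.51, adjusted p = 0.0387, edgeR) and by 1.74 at 1500 mkd (SE 0.51, adjusted p = 0.0363). Control females had 34.1, 30.2, 55.9, 41.5 and 17.2 CPM, females at 1500 mkd 86.0, 178, 61.3, 80.1 and 44.0 CPM, with 4 of 5 above all controls. Here Hspb1 rose by 1.33 (SE 0.42, adjusted p = 0.0271), and its group means at 300, 500 and 750 mkd (19.2, 34.1 and 29.2 CPM) were below the control mean of 35.8 CPM. The male call at 1000 mkd was lost without control rat 1, 2, 3 or 4 or treated rat 2, 3 or 5 (adjusted p from 0.0509 to 0.144) or with the replicate number as a block (0.0513). The male call at 1500 mkd was lost without control rat 1, 2, 3 or 4 or treated rat 1, 4 or 5 (from 0.0505 to 0.0951) or with the control and this dose alone (0.0796). The female call was lost without control rat 1, 2 or 5 or treated rat 2 (from 0.0502 to 0.152), and Hspb1 changed sign in none of these fits. Treated female rat 2, at 178 CPM of Hspb1, had the lowest hepatocyte marker sum of its group (88991 CPM) and its highest TMM factor (1.45).

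Hspb1 was not called in males of day 8 in experiment B. Controls had 18.3, 19.6, 16.0, 9.29 and 12.3 CPM, rats at 1000 mkd 15.0, 27.0, 14.1, 21.3 and 19.8 CPM and rats at 1500 mkd 37.3, 57.7, 32.7, 30.9 and 16.0 CPM. At 1500 mkd 4 of 5 rats were above all controls, and the log2 fold change of 1.21 (SE 0.31, adjusted p = 0.0757, edgeR) was not called, although the Wald test of DESeq2 called it. At the shared dose of 1000 mkd on day 8, the response of Hspb1 was larger in experiment A than in experiment B by 1.53 (SE 0.46, adjusted p = 0.033, interaction in edgeR). Without rat 2 of every group this difference was 0.92 (adjusted p = 0.161), without rat 3, 4 or 5 the adjusted p lay from 0.0668 to 0.153, and stock and experiment cannot be told apart. The responses at 1500 mkd did not pass the test for a difference between the sexes on day 8 (females minus males 1.67, SE 0.60, adjusted p = 0.957) or between days in females (day 29 minus day 8 -1.56, SE 0.66, adjusted p = 0.603).

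**Figure D1:**
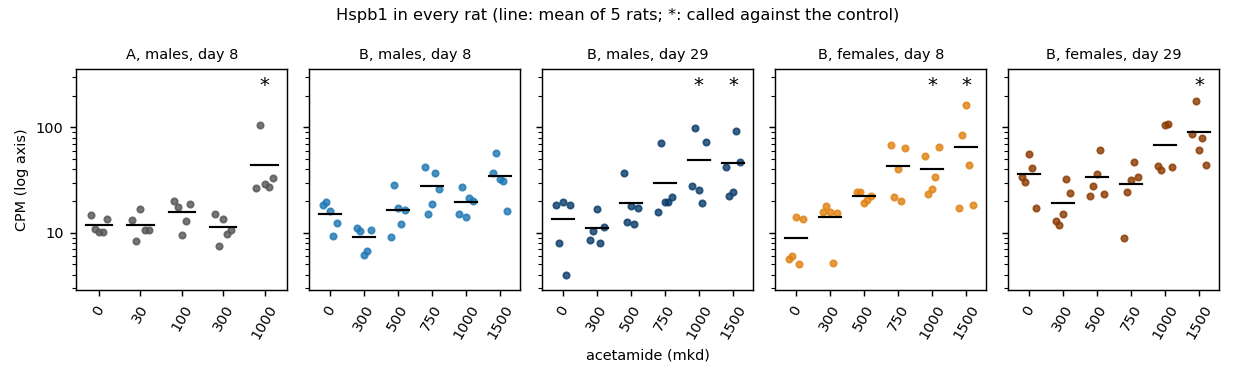
Hspb1 in each rat (points, CPM on a log axis) by acetamide dose in mkd, one panel per experiment, sex and day, with the mean of 5 rats as a line and an asterisk at doses called against the control. In females of day 8 the means run from 8.86 CPM in the control to 65.7 CPM at 1500 mkd, and rat 2 at 1000 mkd in experiment A, at 105 CPM, lies apart from the other 4 of its group.

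The small heat shock proteins tested in each table were Hspb1, Hspb2, Hspb6, Hspb8 and Hspb11. Of these 5, Hspb1 was the only one called in a dose comparison. All 5 had positive log2 fold changes at 1500 mkd in males of day 8 and of day 29, where 50.5% and 41.6% of all genes were negative. At the highest dose of experiment A, Hspb2, Hspb6 and Hspb11 were negative (-0.07, -0.23 and -0.30). In females at 1500 mkd, Hspb6 was negative on day 8 (-0.17). On day 29, Hspb6, Hspb8 and Hspb11 were negative in females (-0.45, -0.38 and -0.08). Whether the other small heat shock proteins differed from Hspb1 was not tested. Hspb8, which works with Bag3 in autophagy of damaged proteins, had log2 fold changes from -0.38 (females of day 29, adjusted p = 0.0591) to 0.33 (males of day 29, adjusted p = 0.199) at the highest doses. Hspb2, a muscle chaperone at 0.104 to 0.198 CPM in control males of day 29, had 0.215 to 0.440 CPM at 1500 mkd, with a log2 fold change of 1.38 (SE 0.49, adjusted p = 0.0743), and Hspb6 had 0.57 (adjusted p = 0.0454), past the adjusted p but not the fold threshold. None of the 5 muscle marker genes tested in males of day 29 was called. All 5 had positive log2 fold changes at 1500 mkd, from 0.15 (Cnn1) to 0.72 (Mylpf, adjusted p = 0.059, edgeR), and the part of muscle in the Hspb2 value was not tested.

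The cytosolic Hsp70 genes that heat shock induces, Hspa1a and Hspa1b, were not called by edgeR in any of the 24 dose comparisons, nor by DESeq2 at the highest dose of any table. Single rats lay far above the rest of their groups. In experiment A, controls had 1.19, 1.92, 1.78, 3.49 and 3.18 CPM of Hspa1a and rats at 1000 mkd 1.79, 21.0, 3.40, 2.94 and 2.47 CPM, so that the log2 fold change was 1.45 (SE 0.63, adjusted p = 0.0826, edgeR) and 0.19 without rat 2 (adjusted p = 0.833). The high rat in females of day 29 was a control. Controls had 5.72, 7.08, 6.45, 89.7 and 2.76 CPM and rats at 1500 mkd 2.20, 10.8, 3.18, 3.87 and 6.34 CPM, and the log2 fold change of -2.07 (SE 0.86, adjusted p = 0.091) became -0.08 without control rat 4 (adjusted p = 0.952). The same control rat had the group's highest levels of Hspa1b (30.6 CPM), Dnajb1 (180 CPM), Dnajb4 (39.6 CPM), Hspa4l (10.3 CPM) and Hsph1 (228 CPM), all of them cytosolic. In males of day 29 at 1500 mkd, rat 4 had 17.7 CPM of Hspa1a and the other 4 between 1.84 and 6.68 CPM.

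**Figure D2:**
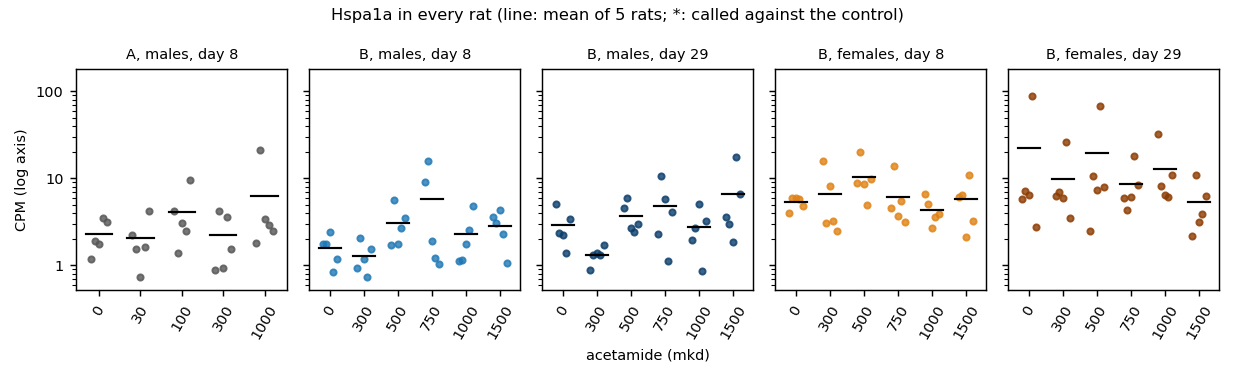
Hspa1a in each rat (points, CPM on a log axis) by acetamide dose in mkd, with the mean of 5 rats as a line. Single rats lie far above their groups, such as the control female of day 29 at 89.7 CPM, and no dose was called against its control.

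Of 62 genes of the group, 7 were called in females of day 29 at 1500 mkd, 1 up and 6 down, a share (11.3%) close to the 13.1% of all genes tested. The cytosolic genes among those that fell were Dnajb1, Hsph1, Dnaja1 and Dnajc12, while Hspa8 (0.07), Hspa2 (0.33) and Dnajc17 (0.55) had positive log2 fold changes and were not called. Dnajb1, the main Hsp40 partner of cytosolic Hsp70, had 103, 70.3, 75.1, 180 and 120 CPM in the controls and 58.1, 58.4, 52.1, 61.1 and 63.6 CPM at 1500 mkd. All treated rats were below all controls. Dnajb1 fell by 0.90 (SE 0.22, adjusted p = 0.0048, edgeR), and by 0.68 without control rat 4, which carried the high Hspa1a (adjusted p = 0.0223). Dnajb1 stayed called in all 16 alternatives.

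Hsph1, the Hsp110 protein that releases ADP from Hsp70, had 169, 177, 154, 228 and 191 CPM in the control females and 121, 142, 96.4, 121 and 129 CPM at 1500 mkd, again without overlap. It fell by 0.59 (SE 0.21, adjusted p = 0.0464, edgeR), close to both thresholds, and the call was lost without any 1 of the treated rats 1 to 4 or of the control rats 1, 2, 4 and 5 (adjusted p from 0.0548 to 0.119). The Hsph1 call was also lost with no filter on low counts (adjusted p = 0.0505, edgeR) and with at least 10 counts in every rat (0.0548). With the replicate number as a block its log2 fold change was -0.58, under the fold threshold. Dnaja1, another Hsp70 partner of the cytosol, had 394, 314, 312, 451 and 488 CPM in the controls against 228, 234, 179, 245 and 397 CPM, with 1 treated rat inside the control range. It fell by 0.61 (SE 0.17, adjusted p = 0.0141), and dropped below the fold threshold without control rat 4 or 5 or treated rat 1, 2 or 3 (log2 fold change from -0.58 to -0.51). Dnajc12, which binds the aromatic amino acid hydroxylases, fell by 0.84 (SE 0.27, adjusted p = 0.0292), with controls at 54.0, 49.3, 29.2, 61.2 and 78.1 CPM and treated rats at 34.0, 18.2, 16.2, 40.5 and 43.0 CPM, which overlap. Its call was lost without control rat 1, 4 or 5 or treated rat 2 or 3 (adjusted p from 0.0502 to 0.114). In a fit of the control and this dose alone, the calls of Dnaja1, Dnajc12, Dnajc28, Hspa9 and Hspb1 at this dose were lost (adjusted p = 0.106, 0.116, 0.120, 0.0880 and 0.0624). Hsp90ab1, the constitutive Hsp90, had 760 to 952 CPM in the controls and 557 to 703 CPM at 1500 mkd, without overlap, and its log2 fold change of -0.42 (adjusted p = 0.0248) passed the adjusted p but not the fold threshold.

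In males of day 29 at the same dose these genes had other values. There Dnajb1 had 56.0 to 87.8 CPM at 1500 mkd against 53.7 to 69.0 CPM in the controls (log2 fold change 0.18, adjusted p = 0.504, edgeR), Hsph1 had -0.08 (adjusted p = 0.83) and Dnaja1 0.16 (adjusted p = 0.476). The difference of the response between the sexes on day 29, females minus males, was -1.06 for Dnajb1 (SE 0.28, adjusted p = 0.082, interaction in edgeR) and -0.74 for Dnaja1 (SE 0.22, adjusted p = 0.108). Of the 62 genes, 0 passed this test by edgeR, 13 had an unadjusted p under 0.05 and 1 passed by DESeq2, while 0.0688% of all genes were called.

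Of the cytosolic genes in experiment A at 1000 mkd, Dnajc17, a nuclear DnaJ protein with an RNA recognition motif, was called. The controls had 2.77, 3.30, 2.72, 2.95 and 2.53 CPM and the treated rats 4.17, 4.87, 2.87, 5.18 and 4.82 CPM, 4 of them above all controls. Dnajc17 rose by 0.62 (SE 0.18, adjusted p = 0.0122, edgeR), and its fold passed below the threshold without control rat 5 or treated rat 2 or 4 (log2 fold change from 0.56 to 0.58). Dnajc17 had log2 fold changes of 0.57, 0.36, 0.42 and 0.55 at the highest dose of the other tables, of which that in females of day 29 passed the adjusted p (0.0409). Dnajc9, a histone chaperone, had 19.7, 19.6, 20.5, 20.3 and 16.9 CPM in females of day 29 at 1500 mkd against 12.9 to 18.4 CPM in the controls (log2 fold change 0.32, adjusted p = 0.0246), and 40.0 CPM in rat 3 of the males at 1500 mkd on day 29 against 14.0 to 19.4 CPM in the rest of its group. Hspa4, an Hsp110 protein, had log2 fold changes between -0.14 and 0.11 at the highest doses and was not called. The levels of Hspa8 spread from 1.99 to 18.8 CPM in females of day 29 at 1500 mkd alone, and Hspa8 was not called either.

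Of the mitochondrial chaperones Hspa9, Dnaja3 and Dnajc19 were called. Hspa9, the mitochondrial Hsp70 (mortalin) that pulls in imported proteins, had 142, 156, 161, 140 and 169 CPM in control males of day 29, 127, 72.2, 87.0, 88.1 and 64.8 CPM at 1000 mkd and 64.4, 71.1, 94.3, 113 and 84.4 CPM at 1500 mkd. No treated rat reached the control range. Hspa9 fell by 0.80 at 1000 mkd (SE 0.19, adjusted p = 0.0274, edgeR) and by 0.85 at 1500 mkd (SE 0.19, adjusted p = 0.0124). The call at 1500 mkd held in all 16 alternatives, with log2 fold changes from -0.97 to -0.78, and that at 1000 mkd was lost without control rat 2 or treated rat 2, 3 or 5 (adjusted p from 0.0692 to 0.0799). In females of day 29 the controls had 161, 142, 91.5, 209 and 185 CPM and the rats at 1500 mkd 97.2, 85.9, 113, 127 and 79.5 CPM, with an overlap at control rat 3. Hspa9 fell by 0.65 there (SE 0.21, adjusted p = 0.0264), and the call was lost without control rat 1, 4 or 5 or treated rat 1, 2 or 5 (adjusted p from 0.0505 to 0.0913). On day 8 Hspa9 was not called, with log2 fold changes of -0.45 in experiment A (adjusted p = 0.019, under the fold threshold), -0.42 in males (adjusted p = 0.227) and -0.18 in females (adjusted p = 0.621) of experiment B. The difference between days at 1500 mkd was not called in either sex.

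**Figure D3:**
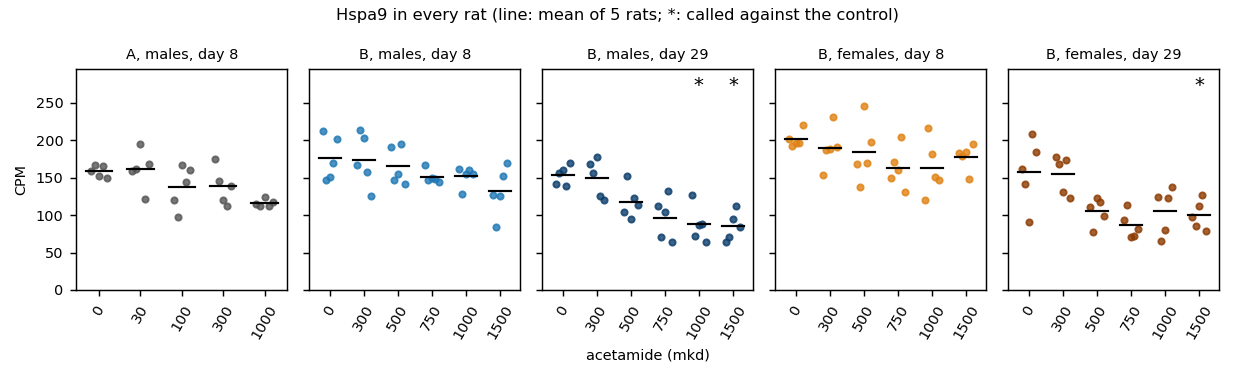
Hspa9 in each rat (points, CPM on a linear axis from 0) by acetamide dose in mkd, with the mean of 5 rats as a line and an asterisk at doses called against the control. In males of day 29 all rats at 1000 and 1500 mkd, at most 127 CPM, lie under all controls, of which the lowest has 140 CPM.

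Hspd1 and Hspe1 encode the chaperonin Hsp60 and its lid Hsp10. In males of day 29 Hspd1 had 88.2 to 122 CPM in the controls and 94.2 to 126 CPM at 1500 mkd (log2 fold change 0.10, SE 0.12, adjusted p = 0.602, edgeR), and Hspe1 had 0.38 (SE 0.17, adjusted p = 0.166). Neither was called in any of the 24 dose comparisons. Dnaja3, the mitochondrial DnaJ partner of Hspa9 (Tid1), had 157, 182, 160, 156 and 175 CPM in the controls of experiment A and 106, 75.7, 134, 86.2 and 99.4 CPM at 1000 mkd, without overlap. Dnaja3 fell by 0.73 (SE 0.15, adjusted p = 0.00113) and stayed called in all 16 alternatives. In females of day 29 at 1500 mkd Dnaja3 had a log2 fold change of -0.52 (adjusted p = 0.00136), under the fold threshold, and at the other highest doses between -0.24 and -0.07. Dnajc19, part of the import motor of the inner membrane, fell in experiment A by 0.65 (SE 0.19, adjusted p = 0.0136), from 18.9, 28.4, 24.3, 20.3 and 25.8 CPM to 19.4, 8.72, 19.8, 11.9 and 15.1 CPM. Those levels overlap, and its fold passed below the threshold without control rat 2 or treated rat 2 or 4 (log2 fold change from -0.58 to -0.50). Of 12 genes of mitochondrial protein quality control, 1 was called in experiment A, Grpel1, the nucleotide exchange factor of Hspa9, which fell by 0.62 (SE 0.14, adjusted p = 0.00208), and 0 at the highest dose of the other tables. The share of all genes called was 21.4% in experiment A, 4.91% in males of day 29 and 13.1% in females of day 29.

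Among the ER chaperones 2 were called, both downward. Log2 fold changes were negative in 11, 11, 10, 9 and 11 of 13 ER genes at the highest dose of experiment A, males of day 8, males of day 29, females of day 8 and females of day 29, where 50.0%, 50.5%, 41.6%, 50.8% and 50.2% of all genes were negative. Most mitochondrial genes were negative as well at the highest dose of each table but that of males of day 29. Negative values were thus not particular to the ER. Hspa5 (BiP), the ER Hsp70 and a classical marker of ER stress, had 632 to 1193 CPM in the controls and 395 to 941 CPM at 1000 mkd in experiment A, and the ranges overlapped (log2 fold change -0.41, SE 0.20, adjusted p = 0.13, edgeR). Hsp90b1 (Grp94), the ER Hsp90, had log2 fold changes from -0.26 to -0.01 at the highest doses, and Dnajb11, a DnaJ partner of BiP, from -0.02 to 0.14. Dnajc3, an ER DnaJ protein that also inhibits the kinase PERK, had -0.52 in females of day 29 (adjusted p = 0.00517), past the adjusted p but not the fold threshold.

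The called ER genes were Dnajb9 and Hspa13. Dnajb9 (ERdj4), which hands BiP to the sensor IRE1, had 54.9, 91.4, 45.1, 45.6 and 56.1 CPM in the controls of experiment A and 42.0, 31.9, 46.9, 38.1 and 29.5 CPM at 1000 mkd, with an overlap at treated rat 3. It fell by 0.64 (SE 0.21, adjusted p = 0.0263, edgeR), and control rat 2 decided the size, since without it the value was -0.42 (adjusted p = 0.121). Without treated rat 2, 4 or 5 the adjusted p lay from 0.0527 to 0.0769. Hspa13, an Hsp70-like ATPase of microsomes, had 19.4, 32.5, 24.5, 23.5 and 17.7 CPM in control males of day 29 and 10.6, 8.47, 20.5, 11.9 and 12.1 CPM at 1500 mkd, where rat 3, which stood apart from its group, lay inside the control range. Hspa13 fell by 0.88 (SE 0.27, adjusted p = 0.0479), a call lost without control rat 2, 3 or 4 or treated rat 1, 2, 4 or 5 (adjusted p from 0.0614 to 0.132). It was also lost with the control and this dose alone (0.0654) and with the replicate number as a block (0.0571). Of 24 other genes of the unfolded protein response tested, 1 rose and 2 fell in experiment A (Ddit3 up, Pdia4 and Edem1 down), 3 fell in males of day 29 (Atf6, Ern1 and Sel1l), 1 fell in females of day 29 (Pdia4) and 0 were called on day 8 of experiment B. Of all genes tested, 21.4% were called in experiment A, 4.91% in males of day 29 and 13.1% in females of day 29.

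Other members were called in single tables. Dnajc5, the cysteine string protein of secretory vesicles, had 12.4, 14.1, 14.1, 13.0 and 11.4 CPM in control males of day 29, 10.4, 7.25, 7.19, 8.06 and 6.36 CPM at 1000 mkd and 7.10, 5.81, 10.3, 7.55 and 8.76 CPM at 1500 mkd, all below the controls. Dnajc5 fell by 0.73 (SE 0.16, adjusted p = 0.0247, edgeR) and by 0.71 (SE 0.16, adjusted p = 0.0122). The call at 1500 mkd held in all 16 alternatives, and that at 1000 mkd was lost without control rat 2 or treated rat 2, 3 or 5 (adjusted p from 0.0692 to 0.0742). In females of day 29 at 1500 mkd, Dnajc5 had a log2 fold change of -0.13 (adjusted p = 0.637) and Dnajc28 fell by 0.87 (SE 0.26, adjusted p = 0.0201), from 3.83 to 8.76 CPM in the controls to 1.67 to 4.95 CPM, a call lost without control rat 5 or treated rat 2 or 3 (adjusted p from 0.0632 to 0.0911). Dnajc22 fell in experiment A by 0.63 (SE 0.13, adjusted p = 0.00142), from 103, 113, 101, 96.5 and 110 CPM to 79.2, 45.3, 84.7, 69.5 and 58.9 CPM, without overlap, and its fold passed below the threshold without treated rat 2 or 5 (log2 fold change -0.52 and -0.58). At 1000 mkd on day 8 the response in experiment A minus that in experiment B was -0.70 for Dnajc22 (SE 0.18, adjusted p = 0.016) and -0.59 for Dnajc4 (SE 0.17, adjusted p = 0.0288), and without rat 4 of every group the adjusted p were 0.160 and 0.196, with Dnajc22 also lost without rat 2 or 5 (0.0735 and 0.0734) and Dnajc4 without rat 5 (0.191). With at least 10 counts in every rat the Dnajc4 difference was -0.54, under the fold threshold.

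Over the whole group, the count of called genes was compared with that of all genes tested. In experiment A 6 of 60 were called at 1000 mkd, 2 up and 4 down, against 21.4% of all genes. Males of day 29 had 3 of 61 at 1000 mkd (all genes 2.76%) and 4 of 61 at 1500 mkd (4.91%), and females of day 8 had 1 of 62 at 1000 mkd (1.37%) and 1 of 62 at 1500 mkd (0.705%). The called share of the group (10.0%) was below the background in experiment A. It was close to the background in females of day 29 at 1500 mkd (11.3% against 13.1%) and rested on 1 to 4 genes elsewhere. By the adjusted p alone it was 20.0% against 30.7% of all genes in experiment A and 25.8% against 19.4% in females of day 29. At the other doses 0 of the group were called by edgeR. These were 30, 100 and 300 mkd in experiment A (2, 1 and 1 genes with an unadjusted p under 0.05, all genes called 0%), 300, 500, 750, 1000 and 1500 mkd in males of day 8 (1, 1, 3, 2 and 6 genes, all genes 0% and 0.177% at 1500 mkd), and 300, 500 and 750 mkd in males of day 29 (3, 10 and 17 genes, all genes 0%, 0% and 0.78%). They were also 300, 500 and 750 mkd in females of day 8 (1, 4 and 5 genes, all genes 0.0087%, 0.0174% and 0.0174%) and 300, 500, 750 and 1000 mkd in females of day 29 (3, 4, 15 and 10 genes, all genes 0%, 0.0349%, 0.183% and 1.59%). DESeq2 called 2 of the group in males of day 29 at 750 mkd, 1 each in males of day 8 at 1500, females of day 8 at 750 and females of day 29 at 750 and 1000 mkd, and 0 at the other doses of this list.

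The sites of the proteins were set side by side by their median log2 fold change at the highest dose, in the order experiment A, males of day 8, males of day 29, females of day 8 and females of day 29. All genes tested had medians within 0.07 of 0, and the 70 genes, as far as tested, -0.24, -0.03, 0.05, -0.07 and -0.17. Cytosolic Hsp70 and Hsp110 genes had 0.11, 0.17, 0.30, -0.12 and -0.59, and cytosolic or nuclear DnaJ genes -0.20, -0.02, 0.13, -0.06 and -0.13. The ER genes had -0.25, -0.18, -0.15, -0.09 and -0.20, below the median of all genes in each table, and the mitochondrial genes -0.41, -0.07, 0.06, -0.12 and -0.19. Small heat shock proteins had -0.07, 0.30, 0.57, 0.20 and -0.08. Cytosolic Hsp70 and Hsp110 medians shifted when a rat with high Hspa1a was left out. They became -0.16 in experiment A without treated rat 2 and -0.10 in females of day 29 without control rat 4. In males of day 29 the median moved less, to 0.19 without treated rat 4. This was not checked on day 8 of experiment B. Hspa1l is among the cytosolic Hsp70 and Hsp110 genes in females alone, and no site was tested as a group.

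**Figure D4:**
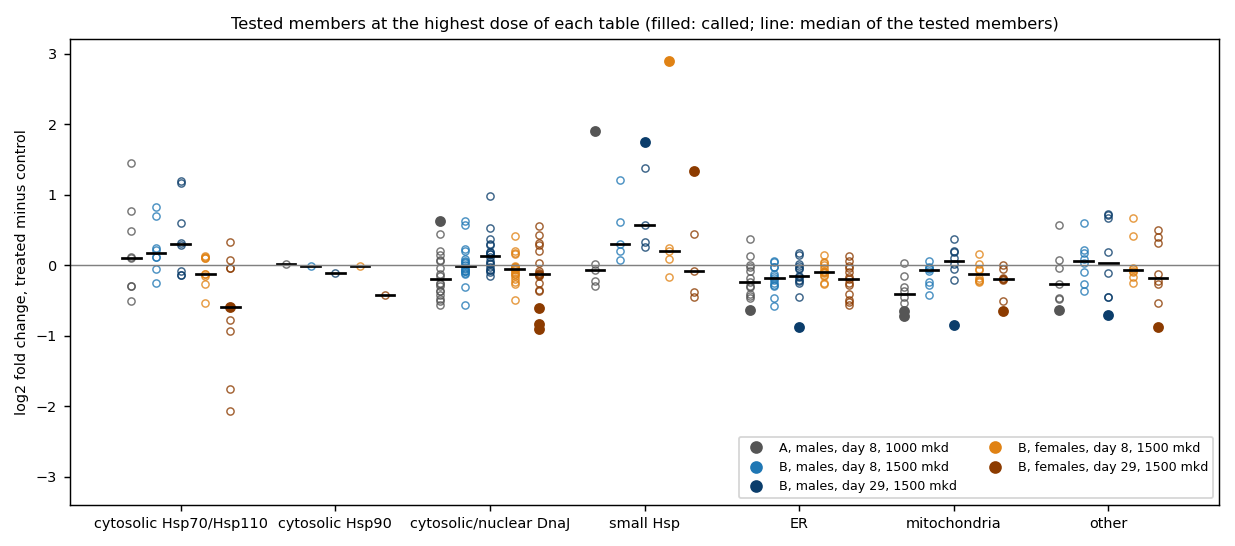
Log2 fold change (treated minus control) of each tested gene of the group at the highest dose, by site of the protein and, within a site, by table in the order of the legend, with filled points for called genes and lines for medians. The 4 filled points above 1 are Hspb1, and the ER medians lie from -0.25 to -0.09, with Hspa13 in males of day 29 lowest among ER genes at -0.88.

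By sign, 5 of the 60 genes tested in every table had a positive fold at the highest dose of all 5 tables (Dnajb13, Dnajc17, Dnajc9, Hspa12a and Hspb1) and 15 a negative one, among them Hspa9, Dnaja3, Hsp90b1, Dnajc3, Dnajb9, Dnajc5, Dnajc22 and Hsph1. That is 8.33% up and 25.0% down, against 19.8% up and 16.5% down of 11066 genes tested in all tables, whose controls are separate rats. At an adjusted p of at most 0.05 without the fold threshold, 2 genes of the group were higher and 10 lower in experiment A and 3 higher and 13 lower in females of day 29, while of all genes 1870 were higher and 1608 lower in experiment A and 1289 and 938 in females of day 29.

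Partners of these chaperones were counted at the highest doses. Of all genes tested there, 21.4% were called in experiment A, 4.91% in males of day 29 and 13.1% in females of day 29. On day 8 of experiment B the shares were 0.177% in males and 0.705% in females. Of 25 HSF1 and co-chaperone genes tested (Hsf1, Bag3, Stip1 and others) 0 rose at the highest dose of any table, and 2 fell in experiment A (Ahsa2 and Cdc37l1), 1 in males of day 29 (Bag4) and 2 in females of day 29 (Bag2 and Sgtb). Hsf1 itself had log2 fold changes from 0.09 to 0.28, and Bag3, a heat shock target that pairs with Hspb8, from -0.37 to 0.19, none called. Of the 11 genes of the chaperonin TRiC and prefoldin tested, 0 were called. Of 15 targets of ATF4 tested, 5 rose and 1 fell in experiment A, and of 14 tested in females, 3 rose on day 29 and 1 on day 8.

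Other gene lists and cell type markers moved in the same comparisons, and their part in the results above was not tested. In bulk tissue fewer cells of a type and less RNA per cell cannot be told apart. All 14 cell cycle genes tested rose in experiment A and in females of day 29, 12 in males of day 29, 2 in females of day 8 and 1 in males of day 8, with Rrm2, Ccnb1 and Cdk1 foremost (mean log2 fold change at the highest doses 2.67, 2.55 and 2.55). In males of day 29 at 1500 mkd, rat 3 had a cell cycle sum of 1247 CPM. The rest of its group had 31.9 to 85.8 CPM and the controls 26.0 to 54.5 CPM, and rat 3 enters both the 12 calls and these means. Interferon response genes rose in 11 of 12 in experiment A, 8 in females of day 29, 3 in females of day 8, 1 in males of day 29 and 0 in males of day 8, and Rsad2 and Gbp4 had mean log2 fold changes of 3.07 and 2.56 at the highest doses. Ifit1 differed in sign, at -5.16 (SE 1.93, not called) in males of day 8 and between 2.87 and 7.59 elsewhere. Summed hepatocyte markers (0 up and 3 down of 10) had 73420 to 239384 CPM at 1000 mkd in experiment A against 245183 to 329592 CPM in its controls, and in females of day 29 (1 up, 3 down) 88991 to 188647 CPM at 1500 mkd against 194015 to 371600 CPM. Macrophage markers rose in 7 of 12 in experiment A (1580 to 2745 CPM against 631 to 1897 CPM) and 4 of 12 in females of day 29 (1347 to 2657 against 1187 to 1441 CPM), and T and NK cell markers in 9 of 9 (44.6 to 81.6 against 25.9 to 31.7 CPM) and 3 of 8 (38.9 to 80.7 against 21.4 to 51.5 CPM). In males of day 29, where Hspb1, Hspa9 and Dnajc5 were called, no macrophage or T and NK cell marker was called (macrophage markers 663.7 to 1598 CPM at 1500 mkd against 394 to 999.6 CPM). Of the hepatocyte markers Cyp2e1 alone was called there, upward (0.73, adjusted p = 0.0326, edgeR). Their sum was 107583 to 214220 CPM against 189797 to 240219 CPM, with rat 3 lowest and the next lowest treated rat at 175180 CPM. Erythroid markers fell in experiment A (Hbb by 2.30 and Alas2 by 2.39, of 6 tested) and in females of day 29 (Hbb by 1.26, Alas2 by 1.41 and Slc4a1 by 2.00), and Hba1 was at 0 in every rat of the compared groups. Endothelial markers rose in 3 of 6 in experiment A and 2 of 6 in females of day 29 (Cdh5 by 1.82 and 1.31), and stellate cell markers in 1 of 8 (Pdgfrb by 0.70) and 2 of 8 (Pdgfrb by 0.94 and Dcn by 1.47). Of 4 neutrophil markers, Ngp rose and S100a8 and S100a9 fell in experiment A, and Ngp and Csf3r rose in females of day 29.

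The vehicle controls of the 2 sexes were also compared, and the called shares of the group were close to those of all genes. On day 8, 6 of 61 genes (9.84%) were called between female and male controls, 4 higher and 2 lower in females, against 8.37% of all genes. On day 29 there were 9 of 62 (14.5%), 8 higher and 1 lower, against 11.6%. Dnajc12 had 67.5, 33.9, 33.2, 45.2 and 63.0 CPM in control females of day 8 and 19.4, 22.4, 31.5, 17.5 and 25.8 CPM in males, without overlap. Females minus males was 0.88 on day 8 (SE 0.27, adjusted p = 0.020, edgeR) and 1.00 on day 29 (SE 0.26, adjusted p = 0.00412), lost on day 8 without rat 1, 4 or 5 of every group (adjusted p from 0.0641 to 0.173) and on day 29 without rat 5 (0.0686). Dnajc27, a Rab-like GTPase with a J domain, was higher in females by 0.87 (SE 0.21, adjusted p = 0.00234) and 1.01 (SE 0.23, adjusted p = 0.00105) and stayed called in all 11 alternatives on both days. Dnajb3, a DnaJ protein known from testis, was higher in females of day 8 by 2.31 (SE 0.36, adjusted p = 3.24e-06), at 0.657 to 1.77 CPM against at most 0.374 CPM, and Dnajb7 was lower in females by 1.59 and 1.83 (adjusted p = 0.028 and 0.00423), at under 1.2 CPM in all. The Dnajb7 difference was lost without rat 2, 3 or 4 on day 8 (adjusted p from 0.0608 to 0.160) and without rat 4 on day 29 (0.0537).

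Hspa4l, an Hsp110 protein, was higher in control females by 1.15 on day 8 (adjusted p = 0.00884, edgeR, 0.141 without rat 3 of every group), and by 1.06 on day 29 (adjusted p = 0.0262, 0.224 without rat 4, 0.0862 without rat 5). Several day 29 differences were smaller without rat 4 of every group, which takes out the control female with the high Hspa1a. No fit between the sexes left out that female alone. Hspa1a was higher in females by 2.83 (SE 0.77, adjusted p = 0.00683) and by 0.65 without rat 4 of every group (adjusted p = 0.413), and Hspa1b by 2.47 (SE 0.68, adjusted p = 0.00738) and 1.01 (adjusted p = 0.261). Dnajb1 was higher by 0.72 (adjusted p = 0.00801) and 0.53 without rat 4 (adjusted p = 0.0484), and was lost without rat 5 (0.0726). Hspb8 was higher by 0.59 (adjusted p = 0.0055), 0.49 without rat 4 (adjusted p = 0.0382) and 0.55 without rat 5 (0.0528), and Hspa1l, the testis Hsp70, by 1.54 (adjusted p = 0.0378), at 0.120 to 0.721 CPM against 0 to 0.231 CPM, lost without rat 1, 2 or 4 (0.0894 to 0.352). Of the 9 genes, 2 were called without rat 4. Hspb11, a subunit of the ciliary transport complex, was lower in females of day 8 by 0.61 (adjusted p = 0.049), and was lost without any 1 rat number (adjusted p from 0.0719 to 0.248). It was also lost with the size factors of DESeq2 in edgeR (0.0508) and with no filter on low counts (0.0617). With only the groups of the contrast in the fit, the differences of Hspa4l and Hspb11 on day 8 (adjusted p = 0.109 and 0.0905) and of Hspa4l, Hspa1a and Dnajb1 on day 29 (0.0542, 0.0570 and 0.0573) were lost.

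Between days, control females had more Hspb1 on day 29 than on day 8 by 2.09 (SE 0.49, adjusted p = 0.0264, edgeR), with means of 35.8 ± 14.3 and 8.86 ± 4.51 CPM (SD, n = 5) and without overlap, and this was lost without rat 3, 4 or 5 of every group (adjusted p from 0.101 to 0.133) and with only the groups of the contrast in the fit (0.126). It was the 1 gene of 62 called there, against 0.952% of all genes. In control males 0 of 62 were called between days (6 with an unadjusted p under 0.05, 0 by DESeq2, all genes 0.00872%) and 0 of 61 between experiments on day 8 (6 unadjusted, 0 by DESeq2, all genes 1.29%). Each of these contrasts lies between count tables, so that sex, day or experiment and the processing of the table cannot be told apart. The responses at the highest shared dose were also compared between tables. In that test 3 of 61 genes differed between the experiments (Hspb1, Dnajc22 and Dnajc4, described above) against 6.9% of all genes, and all 3 were lost with only the groups of the contrast in the fit (adjusted p = 0.0819, 0.0747 and 0.0848). None differed by edgeR between the sexes on day 8 (0 of 61, 2 unadjusted, all genes 0%), between days in males (0 of 62, 2 unadjusted, all genes 0%) or between days in females (0 of 62, 8 unadjusted, all genes 0.00858%), and DESeq2 called 0 in these.

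**Figure D5:**
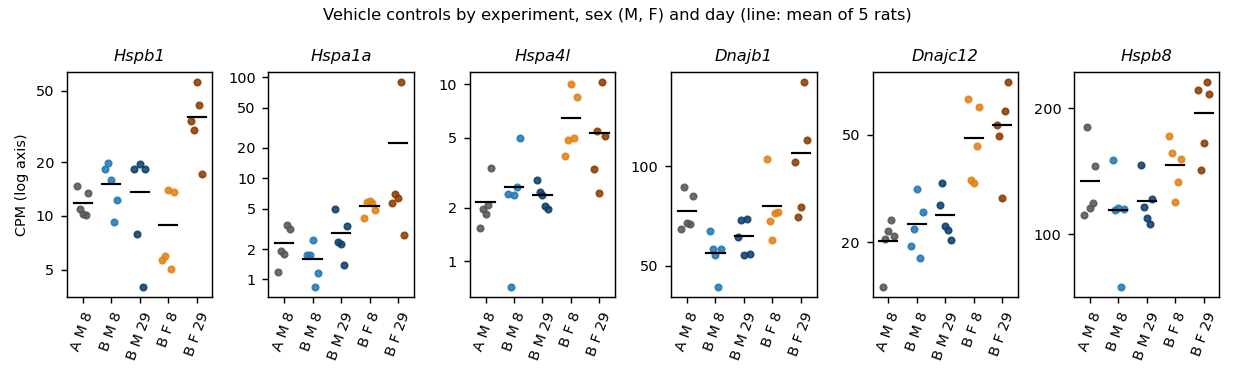
Levels in the vehicle controls (points, CPM on a log axis, line at the mean of 5 rats) of 6 genes of the group by experiment (A, B), sex (M, F) and day (8, 29), each table scaled on its own. Control females of day 29 have 17.2 to 55.9 CPM of Hspb1 against 5.06 to 14.0 CPM on day 8, and their Hspa1a mean rests on the rat at 89.7 CPM.

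Over all rats, levels after subtraction of the group means (log2 CPM with 0.5 added) were correlated for 8 pairs of genes chosen for shared function. Hspa5 and Hsp90b1 of the ER had r = 0.79 and rho = 0.76, and Hspd1 and Hspe1, which share a promoter region, r = 0.75 and rho = 0.73. Among cytosolic genes, Hspa1a and Hspa1b had r = 0.67 and rho = 0.55, Dnaja1 and Dnajb1 r = 0.67 and rho = 0.68, Dnajb1 and Hsph1 r = 0.57 and rho = 0.50. These are given as a description. Without the 2 rats farthest from the median they were 0.76, 0.73, 0.60, 0.68 and 0.54, and within the 5 tables they ranged from 0.26 (Hspa1a and Hspa1b) to 0.90. Hspa1a and Dnajb1 had r = 0.45 and rho = 0.33, 0.34 without the 2 rats, and 0.11 to 0.76 within tables.

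Hspb1 was paired with Hspa1a and Dnajb1. With Hspa1a it had r = 0.29 and rho = 0.25, r = 0.31 without the 2 rats farthest from the median, and within tables from -0.11 to 0.63. With Dnajb1 it had r = -0.16 and rho = -0.22, -0.13 without the 2 rats, and from -0.53 to 0.17 within tables, so that neither relation had 1 sign in all tables. Differences between these correlations were not tested. Rats of a table share its processing and library depth is a part of each level.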

How the data were processed

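RNA-Seq was done on left liver lobe of rats in 29 groups of 5. Per the labels and the methods of the study, the authors trimmed 75-base single-end reads with Trimmomatic, aligned them to the rat genome Rn6 with Bowtie2 and counted them per gene with HTSeq. Tool versions are not given in the sources used here. The deposited values are raw counts for 17337 genes in 5 tables. The summary lines of HTSeq in the tables of experiment B (reads assigned to no gene, 35.5 to 67.1%, median 41.2%) were left out. From these counts, low genes were removed with filterByExpr, libraries were scaled by TMM and all groups of a table were fitted together in edgeR 4.0.16 (R 4.3.3), tested by its quasi-likelihood F statistic and adjusted by Benjamini-Hochberg. DESeq2 1.42.0 was an alternative. Tables were joined for tests between sexes, days or experiments. Named are the genes called at any dose or between vehicle controls, and the best known chaperones of each site. Members and lists were chosen with earlier results of these data known. The scripts were tested on simulated data. Rats were the replicates. Counting error alone does not cover the spread between rats. Promoters were taken from RefSeq (GRCr8), in which 69 of 70 symbols were found.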

Additional observations from a re-analysis of the deposited data

Results flagged for a closer look

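In 68 sets of 5 rats, each of 1 gene in 1 group, the levels of called or named genes were checked for a rat far from the others (Dixon's test, critical value 0.71). Of these sets 6 held one, each on the high side. A chance rate of about 1 in 20 holds for normally distributed levels in independent sets that were not chosen by their values. The levels here are CPM of genes chosen as called or named, so that rate does not apply. Sets also share rats and genes that vary together, and the 6 come from the rats named next. Rat 2 at 1000 mkd in experiment A had 105 CPM of Hspb1 (next highest rat 33.5 CPM), 21.0 CPM of Hspa1a (next 3.40 CPM) and 8.96 CPM of Hspa1b (next 2.72 CPM). Control rat 4 of the females of day 29 had 89.7 CPM of Hspa1a (next 7.08 CPM) and 30.6 CPM of Hspa1b (next 5.25 CPM). Control rat 2 of experiment A had 91.4 CPM of Dnajb9 (next 56.1 CPM).

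The response to 1000 mkd on day 8 differed between experiments A and B for Hspb1 (A minus B 1.53 on the log2 scale), Dnajc22 (-0.70) and Dnajc4 (-0.59), tested as an interaction in edgeR.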

How the results depend on the processing

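Of the values of named genes under the alternatives, 2190 kept their direction and side of the threshold, 17 passed it newly, 146 lost it and 0 changed sign while called. Counts of called genes of the group changed by more than 1.5 times as follows. With DESeq2 they were 1 in males of day 8 at 1500 mkd, 2 and 6 in males of day 29 at 750 and 1000 mkd, 1 in females of day 8 at 750, 1 each in females of day 29 at 750 and 1000, 1 between the responses of the sexes on day 29 and 2 between control females of the days. With the control and the tested dose alone they were 1, 5 and 2 in males of day 29 at 500, 1000 and 1500 mkd, 1 and 0 in females of day 8 at 750 and 1500 and 2 in females of day 29 at 1500. With the contrasted groups alone they were 5 between control sexes on day 29, 0 between control females of the days and 0 between the responses of the experiments. At a fold of 1.4 and adjusted p of 0.1 they were 12 in experiment A at 1000 mkd, 1 in males of day 8 at 1500, 4, 6 and 8 in males of day 29 at 750, 1000 and 1500, 1 in females of day 8 at 750 and 1, 1 and 14 in females of day 29 at 750, 1000 and 1500. With at least 10 counts in every rat it was 1 in males of day 29 at 750 mkd.

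Leaving out 1 rat gave 2 to 9 calls in experiment A at 1000 mkd, 0 to 1 in males of day 8 at 1500, 0 to 6 and 2 to 5 in males of day 29 at 1000 and 1500, 0 to 1 in females of day 8 at 1000 and at 1500, and 0 to 3, 0 to 1 and 1 to 10 in females of day 29 at 750, 1000 and 1500. Without 1 rat number it gave 3 to 4 between control sexes on day 8, 2 to 9 on day 29, 0 to 3 between control females of the days, 0 to 4 between the responses and 0 to 1 between the controls of the experiments.

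Replicate numbers did not pair the rats (mean correlation of same-numbered rats -0.02 to 0.05 by table, lowest -0.61). With the replicate block the counts were 2 in males of day 29 at 750 mkd and 5 between the responses of the experiments, and no other count moved by more than 1.5 times. The causes of these changes were not tested. Levels under 1 CPM, as of Hspb2, Hspa1l and Dnajb7, rest on few reads.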
